A study of Homo sapiens with 9 samples.

Results

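The genes described here encode 9 proteins of the cell surface or of internal membranes: the ion channel TRPA1, the anoctamin ANO3, the G protein-coupled receptors F2RL1, CHRM2 and GPR133, the lectin-like receptor OLR1, and the membrane proteins TM4SF1, TMEM158 and SYPL2. They were found in the deposited table by gene symbol, 9 of the 13745 genes listed there. They were chosen because their values in RAS-activated libraries lay very far from those in the control library, so that difference is given for them as a description with no test. The table holds read counts of polyadenylated RNA that the authors normalised between libraries and raised to a lowest value of 20. A value of 20 therefore means 20 or less.

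The cells were BJ, a line of human foreskin fibroblasts immortalised with the telomerase subunit hTERT. In 8 of the 9 libraries oncogenic RASG12V had been activated, which drives fibroblasts into a lasting growth arrest called oncogene-induced senescence. Among these, 4 libraries carried hairpins against LncRNA-OIS1 (32-2, 32-3, 32-8 and 32-9), 1 carried a knockdown of p53 and 1 a knockdown of BRD7. The 2 senescent libraries carried non-targeting hairpins (500 and 507), and the control library carried hairpin 500 without RASG12V activation. The labels give 14 days of 4-hydroxytamoxifen (4-OHT), an oestrogen receptor ligand, for all 9 libraries, whereas the series' design calls the cells without active RASG12V untreated. Each knockdown library is 1 culture as far as the labels say, and the control, the p53 knockdown and the BRD7 knockdown have 1 library each. The labels do not say whether the 2 senescent libraries or the hairpin libraries came from separate cultures. A p-value here weighs a difference only against the spread between libraries of a group. Those libraries carried different hairpins, so that spread includes differences between hairpins, and the rest of it may be technical.

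RAS signals from the plasma membrane through RAF, MEK and ERK kinases to transcription factors, and sustained signalling rewrites which surface proteins a fibroblast makes. Ion channels and G protein-coupled receptors at the surface decide which outside signals a cell can answer: calcium-permeable channels and Gq-coupled receptors raise cytosolic calcium, while Gi-coupled receptors lower cyclic AMP. Senescent fibroblasts are known for secreting proteases, cytokines and growth factors, and some surface receptors are read by such secreted proteins. TMEM158 also carries the older name RIS1, for RAS-induced senescence, because it was first described as a gene raised by RAS in senescent human fibroblasts.

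RefSeq gave promoter sequence for 6 of the 9 genes, F2RL1, TM4SF1, TMEM158, CHRM2, ANO3 and SYPL2, in 10 windows that each hold 250 bases before a transcription start (build GRCh38.p14). These sequences are shown because 3 belong to genes that were high in RAS-activated libraries and the fourth belongs to ANO3, a gene at the floor in every RAS-activated library. The F2RL1 window lies at chr5:76818780-76819029 on the plus strand. The TM4SF1 window lies at chr3:149377650-149377899 on the minus strand. The TMEM158 window lies at chr3:45226288-45226537 on the minus strand. The ANO3 window, the third of 3 starts for that gene, lies at chr11:26473705-26473954 on the plus strand. Each runs 5′ to 3′ on the gene's strand, and capitals mark exact matches to a searched motif.
F2RL1: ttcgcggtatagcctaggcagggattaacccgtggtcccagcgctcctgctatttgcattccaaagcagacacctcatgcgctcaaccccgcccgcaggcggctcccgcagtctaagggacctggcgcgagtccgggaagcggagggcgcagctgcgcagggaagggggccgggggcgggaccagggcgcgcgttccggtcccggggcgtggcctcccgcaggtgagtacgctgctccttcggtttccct
TM4SF1: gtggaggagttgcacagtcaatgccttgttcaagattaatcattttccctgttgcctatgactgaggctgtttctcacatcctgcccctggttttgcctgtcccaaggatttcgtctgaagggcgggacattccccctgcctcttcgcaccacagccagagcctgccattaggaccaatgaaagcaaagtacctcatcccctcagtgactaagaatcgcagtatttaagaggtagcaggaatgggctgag
TMEM158: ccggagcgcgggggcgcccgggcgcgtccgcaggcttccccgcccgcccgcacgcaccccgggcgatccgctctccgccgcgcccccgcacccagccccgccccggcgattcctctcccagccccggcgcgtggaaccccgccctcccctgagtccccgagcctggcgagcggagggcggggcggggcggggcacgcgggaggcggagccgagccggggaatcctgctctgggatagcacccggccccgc
ANO3: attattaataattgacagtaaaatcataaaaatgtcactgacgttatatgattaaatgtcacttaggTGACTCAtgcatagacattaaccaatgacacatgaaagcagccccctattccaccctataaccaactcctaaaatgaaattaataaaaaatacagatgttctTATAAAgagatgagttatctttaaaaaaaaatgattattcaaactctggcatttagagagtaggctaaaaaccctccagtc

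The motifs searched, on both strands, were the AP-1 site TGANTCA, the cyclic AMP response element TGACGTCA, the ETS site CCGGAAG, the E-box CACGTG and the TATA box TATAAA. Among all 35116 RefSeq promoter windows of this length, 6.57% held the AP-1 letters, 1.65% the cyclic AMP element, 8.52% the ETS letters, 6.34% the E-box and 10.7% the TATA letters. None of these letters was in the printed windows of F2RL1, TM4SF1 and TMEM158, nor in those of CHRM2 and SYPL2. The printed ANO3 window held 1 AP-1 match 183 bases before the start and 1 TATA match 81 bases before it. The second ANO3 window held 1 TATA match on the reverse strand and the first held none, so the printed window had the most matches. The windows differed widely in base composition. Guanine and cytosine made up 82.4% of the TMEM158 window, 68.8% of the F2RL1 window and 50.8% of the TM4SF1 window. They made up 30.8% of the printed ANO3 window, and 37.6% and 61.2% of the first and second ANO3 windows. The median over all windows was 58.0%, with 80% of windows between 38.0% and 75.2%. A match is a run of letters and not evidence of binding, and nothing about a factor follows from letters that are missing from these windows.

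Several measures of the libraries bear on the results below. After the authors' normalisation all 9 libraries hold the same set of values, summing to 14916466.5 with a middle value of 340.1 and 1375 genes at the floor, so sequencing depth is not known and no counting interval can be given. The libraries that stood apart were the control, with 490 genes over 2-fold above and 315 over 2-fold below every other library, and the LncRNA-OIS1 knockdown with hairpin 32-9, with 300 above and 224 below. Each of the other 7 had at most 27 above and at most 24 below. BRD7 read 94.6 in the BRD7 knockdown library, against 582.7 ± 65.1 in senescent libraries (SD, n = 2). LncRNA-OIS1 was not analysed under that name. All 8 listed fibroblast markers were in the table, with a summed level of 99364.1 to 165320.2 in RAS-activated libraries against 334662 in the control. COL1A1 and COL1A2 made up most of that control sum, at 110360.7 and 129460.3. VIM ran the other way, at 48419.6 to 110360.7 in RAS-activated libraries against 39745.4 in the control, as did S100A4, at 6829.0 to 13799.4 against 6416.8 in the control. Of other lineages, 2 of 6 epithelial, 2 of 5 leukocyte, 1 of 6 endothelial, 1 of 7 sensory neuron and 3 of 7 skeletal muscle markers were in the table.

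TRPA1 is a non-selective cation channel, permeable to calcium, that sensory neurons use to detect irritant chemicals. Its normalised read counts with LncRNA-OIS1 knockdown were 2286.7, 3751.6, 2958.4 and 393.7 with hairpins 32-2, 32-3, 32-8 and 32-9. They were 1953.0 with p53 knockdown, 1146.2 with BRD7 knockdown, 2543.1 and 2282.1 in senescent libraries and 20, the floor, in the control. No RAS-activated library came near the control: the lowest, hairpin 32-9, was at least 19.7-fold above it. The senescent mean of 2413 ± 185 (SD, n = 2) was at least 121-fold above the control, a log2 difference of 6.91 from the floor. By that difference TRPA1 ranked 2nd among increases over the 12481 genes tested, which is how it came to be chosen. SCN9A, the 1 sensory neuron marker in the table, ran the other way, at 102.6 to 739.8 in RAS-activated libraries against 1221.6 in the control.

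F2RL1 encodes protease-activated receptor 2, a G protein-coupled receptor that trypsin-like serine proteases switch on by cutting its outer end. With LncRNA-OIS1 knockdown it read 2304.0, 1150.6, 1736.1 and 207.4 with hairpins 32-2, 32-3, 32-8 and 32-9. It read 399.2 with p53 knockdown, 1177.6 with BRD7 knockdown, 678.7 and 694.2 in senescent libraries, and 20, the floor, in the control. The senescent libraries lay close together, at 686.5 ± 11 (SD, n = 2), at least 34.3-fold above the control. The 6 knockdown libraries lay on both sides of them, 4 above and 2 below. F2RL1 and TRPA1 were among 8 genes in the table that reached 200 or more in all 8 RAS-activated libraries while the control sat at the floor. Their place among these genes follows from how they were chosen.

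TM4SF1 is a 4-pass membrane protein of the L6 family, known as a tumour cell surface antigen and for its part in cell migration. It was even across the knockdowns, at 4008.7, 4543.9, 5175.1 and 4684.3 with the LncRNA-OIS1 hairpins in the same order. It read 4707.1 with p53 knockdown, 3842.1 with BRD7 knockdown, 2829.7 and 2729.4 in senescent libraries and 55.8 in the control. The senescent mean of 2780 ± 70.9 (SD, n = 2) was 49.8-fold above the control, and the highest RAS-activated library was 1.9-fold above the lowest. That was the narrowest spread among the genes that were off the floor in all 8 RAS-activated libraries.

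TMEM158, a transmembrane protein, read 5122.7, 2604.8, 3990.8 and 8131.7 with the LncRNA-OIS1 hairpins. It read 5175.1 with p53 knockdown, 4401.2 with BRD7 knockdown, 3457.7 and 4221.8 in senescent libraries and 76.2 in the control. The senescent mean of 3840 ± 540 (SD, n = 2) was 50.4-fold above the control, and the lowest RAS-activated library was 34.2-fold above it. Hairpin 32-9, where TRPA1 and F2RL1 were lowest, gave the highest TMEM158 level.

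CHRM2 encodes the M2 muscarinic acetylcholine receptor, a Gi-coupled receptor best known for slowing the heart. It read 120.2, 88.9, 161.1 and 20 with the LncRNA-OIS1 hairpins, 67.6 with p53 knockdown and 39.0 with BRD7 knockdown. Senescent libraries had 36.0 and 21.1, against 5921.4 in the control. The senescent mean of 28.55 ± 10.5 (SD, n = 2) was 207-fold below the control. This was the largest absolute log2 change, −7.75, among all 12481 genes tested in senescent against control libraries, and it stands as the reason CHRM2 was chosen. The control was 36.8-fold above even the highest RAS-activated library, hairpin 32-8.

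GPR133, named ADGRD1 in RefSeq, is an adhesion G protein-coupled receptor that couples to Gs, and ANO3 belongs to the anoctamin family of chloride channels and lipid scramblases. Both stood at the floor of 20 in all 8 RAS-activated libraries. GPR133 read 1235.3 in the control, at least 61.8-fold higher than in any RAS-activated library. ANO3 read 2055.9 in the control, at least 103-fold higher. The table held 201 genes that were at the floor in all 8 RAS-activated libraries and above it in the control. Of these, 5 reached 1000 or more in the control, GPR133 and ANO3 among them, which follows from how the 2 were chosen.

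OLR1 encodes LOX-1, a C-type lectin-like scavenger receptor for oxidised low-density lipoprotein, known from endothelium and macrophages. It read 20, 26.3, 20 and 30.3 with the LncRNA-OIS1 hairpins, 20 with p53 knockdown and 46.6 with BRD7 knockdown. Senescent libraries had 56.9 and 46.1, and the control had 1880.3. The senescent mean of 51.5 ± 7.64 (SD, n = 2) was 36.5-fold below the control. TIE1, the 1 endothelial marker in the table, read 37.4 to 266.9 in RAS-activated libraries and 22.2 in the control, so it did not share the direction of OLR1. Of the 2 leukocyte markers, PTPRC was at the floor in all 8 RAS-activated libraries and at 156.6 in the control, the direction of OLR1, while CD14 read 25.1 to 143.9 in RAS-activated libraries and 39.9 in the control. Their part in the OLR1 difference was not tested. RefSeq places TMEM52B across OLR1, and TMEM52B was at the floor in all 8 RAS-activated libraries and at 24.4 in the control.

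SYPL2, or mitsugumin 29, is a synaptophysin-family protein known from the triad junctions of skeletal muscle, where the outer membrane meets the calcium store. It read 118.6, 94.6, 45.7 and 241.6 with the LncRNA-OIS1 hairpins, 81.0 with p53 knockdown and 88.8 with BRD7 knockdown. Senescent libraries had 211.1 and 215.7, and the control had 13043.1. The senescent mean of 213.4 ± 3.25 (SD, n = 2) was 61.1-fold below the control, and the control was 54.0-fold above the highest RAS-activated library. The 3 skeletal muscle markers in the table, DES, MYH3 and TTN, had a summed level of 222.5 to 395.2 in RAS-activated libraries and 337.1 in the control. TTN made up most of that sum and overlapped, at 180.6 to 354.3 in RAS-activated libraries against 270.1 in the control. DES and MYH3, both near the floor, ran in the direction of SYPL2. DES was at the floor in all 8 RAS-activated libraries and at 28.8 in the control. MYH3 read 20.9 to 35.9 in RAS-activated libraries and 38.2 in the control. Their part in the SYPL2 difference was not tested. In these bulk libraries fewer cells making a transcript and less transcript per cell cannot be told apart.

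**Figure D1:**
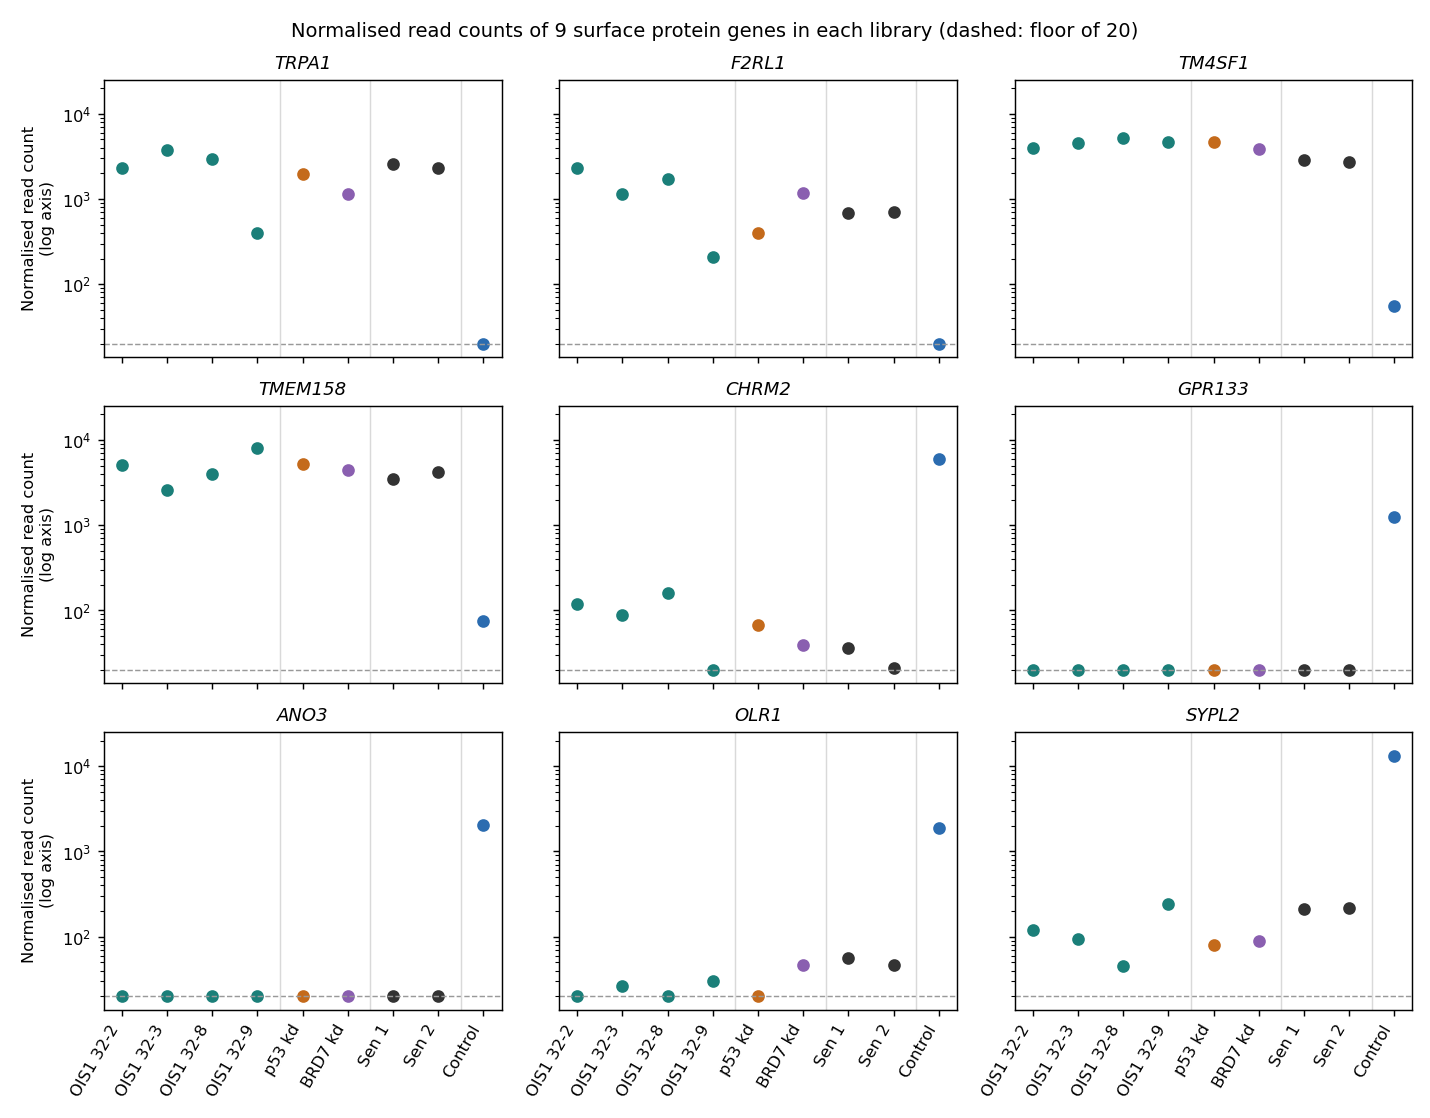
Normalised read count of each of the 9 genes (vertical, log axis) in each of the 9 libraries (horizontal), 1 point per library, with the floor of 20 as a dashed line. TRPA1, F2RL1, TM4SF1 and TMEM158 lie above their control value in all 8 RAS-activated libraries and the other 5 below theirs, with ANO3 and GPR133 at the floor in all 8.

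Across all genes tested, 7.95% were called higher and 7.1% lower in senescent against control libraries, where called means an adjusted p under 0.05 in limma. Because the 9 genes were chosen on this difference, nothing is read from how many of them were called. Only 26 genes in the table were over 10-fold above the control in every RAS-activated library, and 20 had a control value over 20-fold above every RAS-activated library. By size of increase, TRPA1 ranked 2nd, TMEM158 7th, TM4SF1 8th and F2RL1 14th. By size of decrease, CHRM2 ranked 1st, ANO3 5th, GPR133 9th, SYPL2 10th and OLR1 20th.

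**Figure D2:**
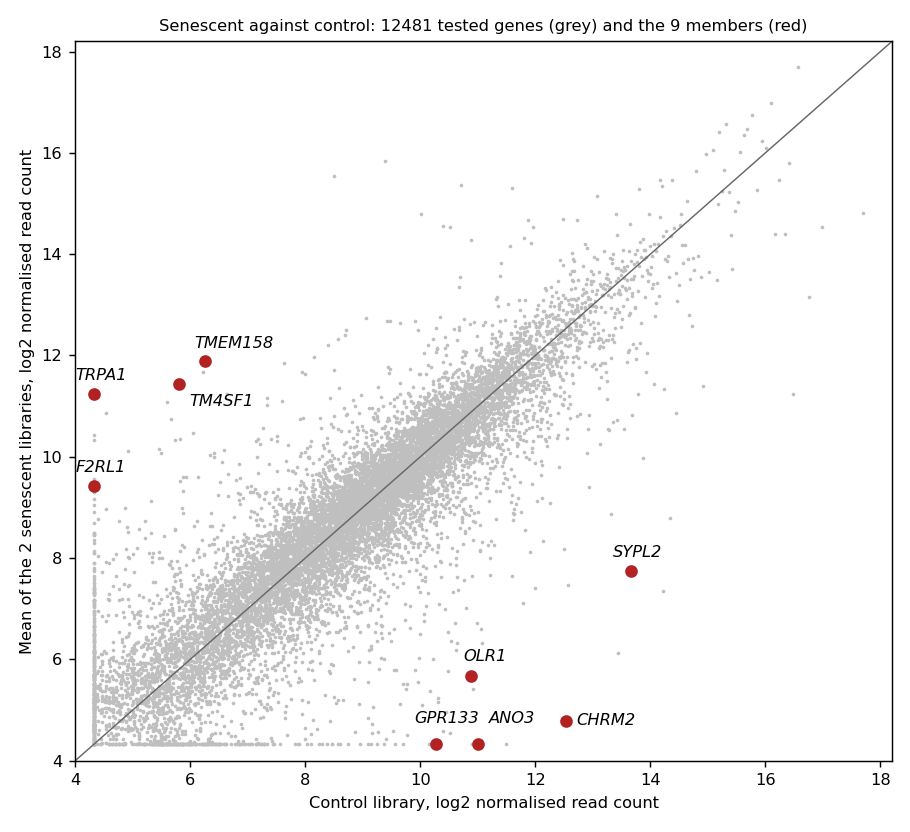
Mean of the 2 senescent libraries (vertical) against the control library (horizontal), both as log2 normalised read count, for 12481 genes in grey and the 9 chosen genes in red, with the line of equality. The 9 genes lie at the outer edges of the cloud, from a log2 difference of −7.75 for CHRM2 to 6.91 for TRPA1.

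The knockdowns ask whether cells in which RASG12V was activated but a regulator was removed keep the senescent level of these genes. The genes were chosen on their distance from the control in all 8 RAS-activated libraries, knockdowns included, so that no library came back to the control level follows from the choice. Differences between knockdown and senescent libraries were not what they were chosen for, although the values of both entered the choice. None of the 9 genes was called in any of the 3 knockdown comparisons. For LncRNA-OIS1 knockdown against senescent libraries, limma called 0% of all genes higher and 0% lower, and 2805 genes had an unadjusted p under 0.05, 2 of the 9 genes among them. For p53 knockdown it called 2.27% of genes higher and 1.57% lower, with 3286 at an unadjusted p under 0.05, again 2 of the 9. Those counts hang on hairpin 32-9: without it 164 genes were called for LncRNA-OIS1 and 2146 for p53 knockdown, while leaving out any of the other 5 senescent and LncRNA-OIS1 libraries gave at most 1 and 0. For BRD7 knockdown it called 0% higher and 0.00801% lower, which is 1 gene, with 1735 at an unadjusted p under 0.05, 1 of the 9. The median log2 difference of the 9 genes was 0 in all 3 comparisons, which is the value of ANO3 and GPR133 at the floor, beside −0.023 with LncRNA-OIS1 knockdown, 0 with p53 knockdown and −0.016 with BRD7 knockdown over all genes. ANO3 and GPR133 give no information on the knockdowns, and of the other 7 genes the middle values were 0.26 with LncRNA-OIS1 knockdown, −0.30 with p53 knockdown and 0.20 with BRD7 knockdown.

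TM4SF1 stood higher in every knockdown library than in either senescent library. With LncRNA-OIS1 knockdown it averaged 4603 ± 480 (SD, n = 4), against 2780 ± 70.9 in senescent libraries (SD, n = 2). The log2 difference was 0.72 ± 0.11 (SE), with a 95% interval of 0.44 to 1.004 and an adjusted p of 0.0788 in limma. With p53 knockdown the log2 difference was 0.76 ± 0.16 (SE), interval 0.36 to 1.16 and adjusted p 0.0615. With BRD7 knockdown it was 0.47 ± 0.16 (SE), with an adjusted p of 0.299. None of these passed the threshold over all genes, though without hairpin 32-9 the p53 knockdown difference did (adjusted p = 0.0493). All 4 LncRNA-OIS1 libraries lay above both senescent libraries for 17.1% of genes tested, and all 6 knockdown libraries did so for 14.7%, so 1 gene of 9 is not more than that background.

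OLR1, already low in senescence, was lower still in most knockdowns. It averaged 24.15 ± 5.06 with LncRNA-OIS1 knockdown (SD, n = 4), against 51.5 ± 7.64 in senescent libraries (SD, n = 2), and all 4 hairpin libraries lay below both senescent ones. The log2 difference was −1.11 ± 0.23 (SE), interval −1.69 to −0.53, with an adjusted p of 0.0864 in limma. The p53 knockdown gave −1.36 ± 0.33 (SE) and an adjusted p of 0.0743, or 0.0394 without hairpin 32-9, whereas the BRD7 knockdown, at 46.6, lay between the 2 senescent libraries. Because 2 of the 4 LncRNA-OIS1 libraries and the p53 library were at the floor, their levels may be lower than listed. All 4 LncRNA-OIS1 libraries lay below both senescent libraries for 21.5% of genes tested and all 6 knockdown libraries for 18.6%. OLR1 was the 1 of the 9 genes to do the first, and none did the second, which is not more than that background.

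CHRM2 was above both senescent libraries in 5 of the 6 knockdown libraries. Both senescent values, 36.0 and 21.1, lay near the floor of 20, and the share of all genes with this pattern was not computed. CHRM2 averaged 97.55 ± 59.6 with LncRNA-OIS1 knockdown (SD, n = 4), against 28.55 ± 10.5 in senescent libraries (SD, n = 2). On the log2 scale hairpins 32-2, 32-3 and 32-8 covered 27.4%, 21.8% and 32.9% of the distance from the senescent mean to the control. The p53 knockdown covered 16.7%. Hairpin 32-9 was at the floor instead, at least 4.45-fold below the lowest of the other 3 hairpins. In normalised read counts, hairpins 32-2, 32-3 and 32-8 reached 120.2, 88.9 and 161.1, against 5921.4 in the control. Such a return was not particular to CHRM2: hairpin 32-9 covered at most 37.8% of that distance for TRPA1 and at most 33.8% for F2RL1. Their control values were at the floor of 20, so the distance itself may be larger. Other values moved away from the control, at −37.5% for SYPL2 with hairpin 32-8 and −34.2% for F2RL1 with hairpin 32-2. That F2RL1 share would also be smaller in size with a control below 20. The CHRM2 log2 difference for the 4 hairpins was 1.47 ± 0.88 (SE), with an interval of −0.70 to 3.65 and an adjusted p of 0.378 in limma.

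TRPA1, F2RL1, TMEM158 and SYPL2 varied widely between the LncRNA-OIS1 hairpins. TRPA1 averaged 2348 ± 1430 with LncRNA-OIS1 knockdown (SD, n = 4), against 2413 ± 185 in senescent libraries (SD, n = 2), a log2 difference of −0.44 with an interval of −2.77 to 1.89. F2RL1 averaged 1350 ± 895 with LncRNA-OIS1 knockdown and 686.5 ± 11 in senescent libraries, a log2 difference of 0.53 with an interval of −1.92 to 2.98. TMEM158 averaged 4962 ± 2350 with LncRNA-OIS1 knockdown and 3840 ± 540 in senescent libraries, a log2 difference of 0.26 with an interval of −0.85 to 1.36. SYPL2 averaged 125.1 ± 83.4 with LncRNA-OIS1 knockdown and 213.4 ± 3.25 in senescent libraries, a log2 difference of −1.02 with an interval of −2.59 to 0.56. Adjusted p-values for these 4 genes in limma lay between 0.401 and 0.815, and intervals this wide do not show that the groups are alike.

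Hairpin 32-9 gave the lowest or the highest of the 4 values for each of these genes, although its gap to the next value, as a share of the range, was 0.45 to 0.628 and did not reach Dixon's 95% critical value for 4 samples. Its TRPA1 level was 5.81-fold and its F2RL1 level 5.55-fold below the lowest of the other 3 hairpins, while its TMEM158 level was 1.59-fold and its SYPL2 level 2.04-fold above the highest. Without it the LncRNA-OIS1 means were 2999 ± 733 for TRPA1, 1730 ± 577 for F2RL1, 3906 ± 1260 for TMEM158, 86.3 ± 37.2 for SYPL2 and 123.4 ± 36.2 for CHRM2 (SD, n = 3). With these 3 hairpins the log2 difference from senescent libraries turned to 0.29 for TRPA1 and to −0.02 for TMEM158, and neither was called. The difference became 1.28 for F2RL1 (adjusted p = 0.0881), 2.12 for CHRM2 (adjusted p = 0.0589) and −1.41 for SYPL2 (adjusted p = 0.131). Other hairpins counted too: the F2RL1 difference was 0.12 without 32-2 and 0.26 without 32-8, and that of SYPL2 was −0.61 without 32-8. SCN9A was at 739.8 with hairpin 32-9, the highest of the RAS-activated libraries. That library's part in each result was measured by leaving it out, and the reason it stands apart was not tested.

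The p53 knockdown library was below both senescent libraries for TRPA1, F2RL1, OLR1 and SYPL2 and above both for TM4SF1, TMEM158 and CHRM2. The share of all genes for which 1 library lay outside both senescent libraries was not computed, so nothing is read from such positions. The p53 log2 differences were −0.30 for TRPA1, −0.78 for F2RL1, 0.44 for TMEM158, 1.29 for CHRM2 and −1.40 for SYPL2, with adjusted p-values of 0.382 to 0.935 in limma. The BRD7 knockdown library had the lowest TRPA1 level apart from hairpin 32-9, a log2 difference of −1.07, and an F2RL1 level above both senescent libraries, a log2 difference of 0.78. Its difference for SYPL2 was −1.27, and none of the 3 was called. With 1 library in each of these knockdowns, the test borrows the spread between the replicated libraries.

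**Figure D3:**
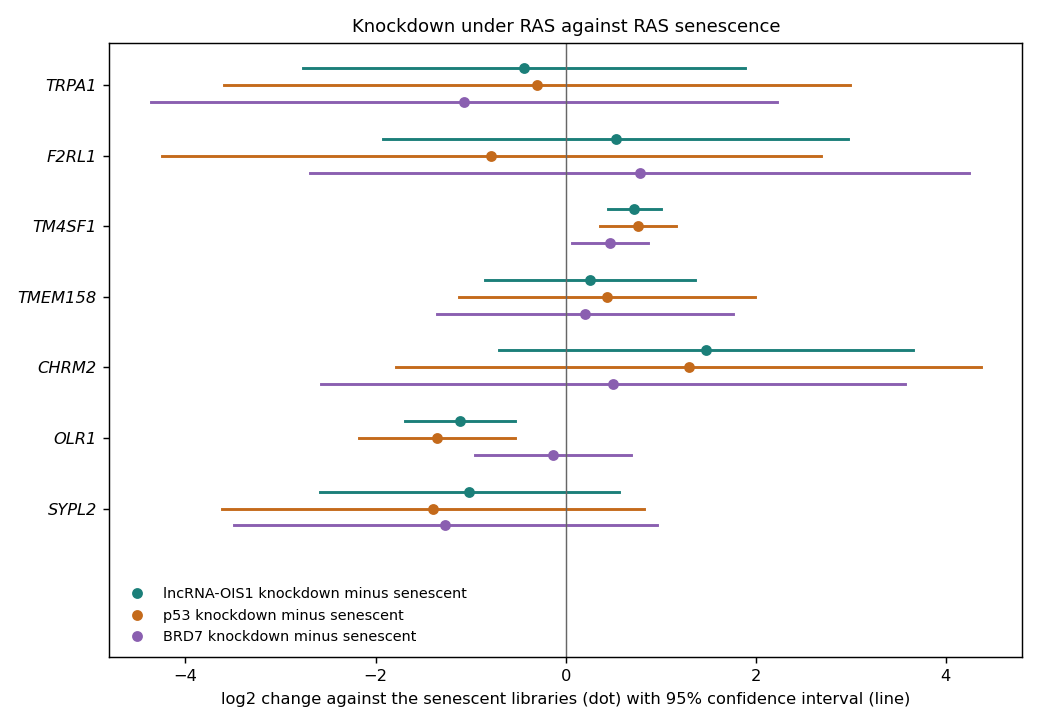
Log2 difference of each knockdown from the 2 senescent libraries (dots) with its 95% confidence interval (lines) for the 7 genes that were not at the floor throughout: LncRNA-OIS1 (4 libraries), p53 (1) and BRD7 (1). TM4SF1 lies right of 0 in all 3 knockdowns, OLR1 left of 0 with LncRNA-OIS1 and p53 knockdown, and the other intervals cross 0.

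The relatives of these genes were read from 9 lists of families and signalling partners holding 228 genes, of which 112 were in the table and 104 were tested. In senescent against control libraries 10 of them rose (9.62%) and 9 fell (8.65%), near the shares of 7.95% and 7.1% over all genes. These counts depend on single libraries: they became 1 and 3 without either senescent library, and 22 and 19 without hairpin 32-9. The following values are log2 differences of senescent minus control with limma's adjusted p.

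Among 10 TRP channels tested beside TRPA1, 1 rose and 4 fell, with a median of −0.60 against 0.03 over all genes. TRPC6, a calcium-permeable channel opened by diacylglycerol, was at the floor in all 8 RAS-activated libraries and at 303.2 in the control (−3.92, adjusted p = 0.00038). TRPV4, opened by swelling and warmth, was at the floor in the same 8 and at 117.1 in the control (−2.55, adjusted p = 0.00168). The floor leaves these 2 genes no spread of their own between libraries. Their p-values therefore rest on the 1 control library and on a spread that limma borrows from other genes. MCOLN2, a lysosomal cation channel, rose by 1.39 on the log2 scale (adjusted p = 0.0499) and was called in 1 of the 6 fits that left out a library. TRPM7, a channel fused to a kinase, had 1793.8 and 1809.9 in senescent libraries and 1829.2 in the control.

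Among 12 protease-activated receptors, proteases and regulators tested beside F2RL1, 2 rose, with a median of 0.16. PROCR, the endothelial protein C receptor, had 903.2 and 1120.6 in senescent libraries against 360.2 in the control, a log2 difference of 1.48 (adjusted p = 0.0195). ARRB1, an arrestin that shuts off activated receptors, rose by 0.80 (adjusted p = 0.0495). F2R, the thrombin receptor and nearest relative in the list, had 2840.2 and 3167.9 in senescent libraries and 2071.1 in the control, with an adjusted p of 0.344. F2RL2 had 2633.0 and 2833.4 in senescent libraries and 1883.2 in the control, with an adjusted p of 0.641. F3, or tissue factor, whose factor VIIa complex can cut F2RL1, had 2721.1 and 3126.9 in senescent libraries and 5742.2 in the control, with an adjusted p of 0.125.

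Among 18 L6 and tetraspanin genes tested beside TM4SF1, 3 rose and none fell, with a median of 0.77. TSPAN14, a partner of the shedding protease ADAM10, had 4983.6 and 5317.2 in senescent libraries against 1191.7 in the control, a log2 difference of 2.11 (adjusted p = 0.0028). TM4SF18, a second L6 gene and, with TM4SF4, a protein-coding neighbour of TM4SF1 in RefSeq, had 111.4 and 132.3 in senescent libraries against the floor in the control (2.60 from the floor, adjusted p = 0.0108). TM4SF18 did not follow TM4SF1 in the knockdowns. It read 48.6, 35.4, 52.6 and 57.8 with the LncRNA-OIS1 hairpins, 30.4 with p53 knockdown and 43.3 with BRD7 knockdown. All were below both senescent libraries, while TM4SF1 was above both in all 6. Over all genes tested, all 6 knockdown libraries lay below both senescent libraries for 18.6% and above both for 14.7%. The fall of TM4SF18 with p53 knockdown was called (−1.998, adjusted p = 0.0467 in limma), a call that hung on single libraries, as given below. The difference between the neighbours was not tested.

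Of 14 adhesion G protein-coupled receptors tested beside GPR133, 2 rose and 1 fell, with a median of −0.43. GPR125 had 1645.3 and 1649.2 in senescent libraries against 452.2 in the control (1.87, adjusted p = 0.00858). EMR2 had 110.6 and 107.0 in senescent libraries against the floor of 20 in the control (2.44, adjusted p = 0.0241). GPR124, which takes part in Wnt signalling of brain vessels, fell to 493.2 and 455.8 in senescent libraries, against 3139.2 in the control (−2.73, adjusted p = 0.0196). Among 4 anoctamins tested beside ANO3, only ANO6, a calcium-activated lipid scramblase, was called: it fell to 2021.6 and 1878.7 in senescent libraries, against 4329.2 in the control (−1.15, adjusted p = 0.0177).

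Of 13 scavenger and lectin-like receptors tested beside OLR1, 1 rose and 1 fell, with a median of −0.92. CD163L1 had 241.6 and 306.9 in senescent libraries against 26.2 in the control (3.38, adjusted p = 0.015). LRP1, an endocytic receptor for lipoproteins and protease complexes, fell to 6629.1 and 6186.3 in senescent libraries, against 14562.8 in the control (−1.19, adjusted p = 0.0176). It was lower again with p53 knockdown, at 2677.2, a log2 difference of −1.26 from senescent libraries (adjusted p = 0.0467). No gene was called among 2 acetylcholine receptor genes beside CHRM2 or among 7 synaptophysin-family and triad genes beside SYPL2. SYPL1, the closest relative of SYPL2 in the list, had 2311.9 and 2239.3 in senescent libraries and 2473.9 in the control, with an adjusted p of 0.826.

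Among 24 G protein, phospholipase C and calcium signalling genes, 1 rose and 2 fell, with a median of −0.04. GNAO1, a Gi-class alpha subunit of the kind M2 receptors use, fell to 107.9 and 89.8 in senescent libraries, against 905.1 in the control (−3.20, adjusted p = 0.00111). It was higher than in both senescent libraries in all 6 knockdown libraries, as 14.7% of genes tested were. It read 189.1, 193.9, 185.1 and 192.1 with the LncRNA-OIS1 hairpins, 191.3 with p53 knockdown and 254.4 with BRD7 knockdown. The log2 difference from senescent libraries was called with p53 knockdown (0.96, adjusted p = 0.0495). It was not called with LncRNA-OIS1 knockdown (0.95) or BRD7 knockdown (1.37). GNAS, the Gs alpha subunit, fell by 0.78 on the log2 scale (adjusted p = 0.0195), and ORAI1, the store-operated calcium channel, rose by 1.35 (adjusted p = 0.0215). Over the 104 tested genes of all 9 lists, p53 knockdown had 1 called higher (0.962%), GNAO1. It had 2 called lower (1.92%), TM4SF18 and LRP1. The shares over all genes were 2.27% higher and 1.57% lower, so the lists are not set apart by these calls. No listed gene was called with LncRNA-OIS1 or BRD7 knockdown in limma. The 3 p53 calls were lost when any 1 of the 2 senescent libraries and the hairpins 32-2, 32-3 and 32-8 was left out. For senescent against control, TRPC6, TRPV4, TSPAN14 and GNAO1 were called in all 6 fits that left out a library, and the other named genes were not. TRPC6 and TRPV4 were at the floor in all 8 RAS-activated libraries, so leaving out any of those could not change their difference. The 1 control library stayed in every fit. With the replicate block, TSPAN14 and GNAO1 were not called.

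**Figure D4:**
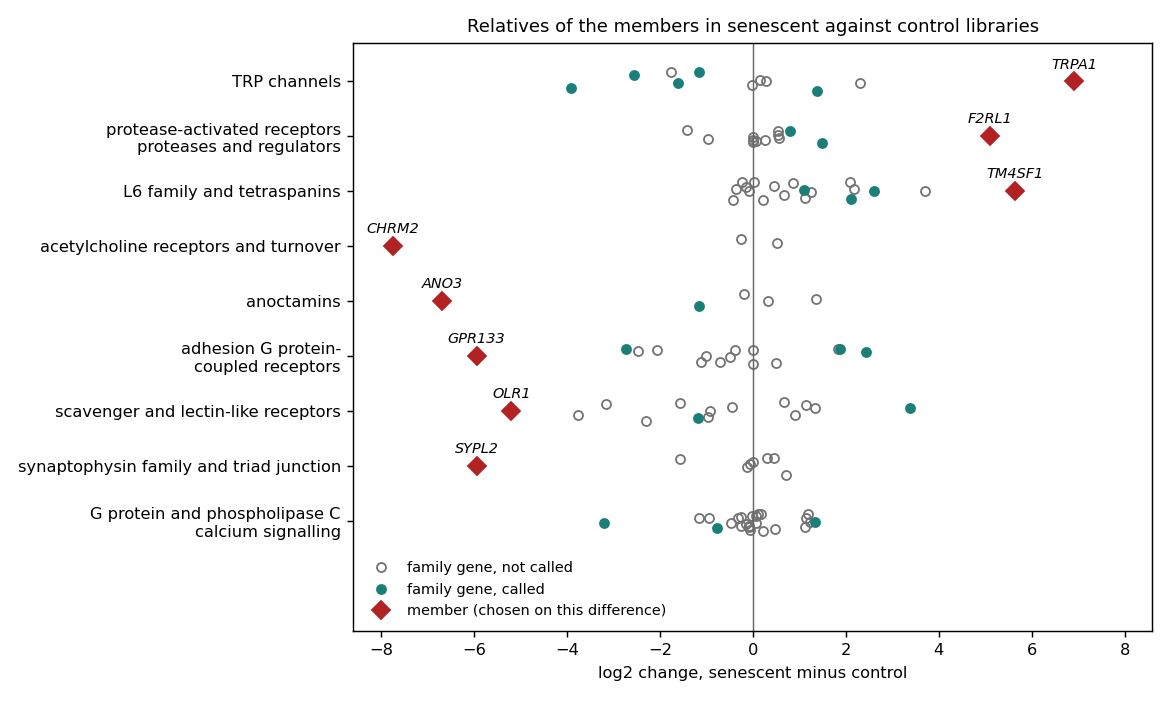
Log2 difference of senescent minus control (horizontal) for the tested genes of 9 family lists (rows), with filled circles for genes called at an adjusted p under 0.05, open circles for those not called and diamonds for the chosen genes. The relatives lie between −3.92 for TRPC6 and 3.70 for TSPAN13. In each of the 8 rows that hold a chosen gene, the relatives lie nearer to 0 than that gene. That follows from choosing those genes for large differences on this same axis.

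Genes with the most similar pattern were sought among 706 genes whose highest and lowest log2 values differed by at least 3, by Pearson's r of log2 values over the 9 libraries. These values are descriptions, since all such patterns share the step between the control and the other libraries. F2RL1 was most like PLAU (r = 0.985), the gene of the serine protease urokinase. PLAU read 45321.7, 27815, 46989.9 and 9227.6 with the LncRNA-OIS1 hairpins, 17615.8 with p53 knockdown, 37673 with BRD7 knockdown, 26190.7 and 30796.4 in senescent libraries and 1033.3 in the control. DLL4 read 2167.4, 988.2, 1883.2 and 161.1 with the LncRNA-OIS1 hairpins, 410.6 with p53 knockdown and 1319.8 with BRD7 knockdown. Its senescent values were 649.9 and 625.9, and its control value 58.6. Like F2RL1, both PLAU and DLL4 were lowest among RAS-activated libraries with hairpin 32-9, then with p53 knockdown. TM4SF1 was most like STX1A (r = 0.989) and SPRY4 (r = 0.988), a feedback inhibitor of RAS-ERK signalling. TMEM158 was most like CNIH3 (r = 0.991) and ETV1 (r = 0.987), an ETS transcription factor. TRPA1 was most like ZNF792 (r = 0.970) and RASGRF2 (r = 0.965), an exchange factor that activates RAS. Among the genes that were low under RAS, CHRM2 was most like SEPP1 (r = 0.983), OLR1 most like MAB21L1 (r = 0.990) and SYPL2 most like LMOD1 (r = 0.985), a smooth muscle actin regulator. ANO3 and GPR133 had no value computed, being at the floor in all 8 RAS-activated libraries.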

How the data were processed

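Polyadenylated RNA of 9 libraries of BJ fibroblasts was sequenced. Per the submitters' processing notes, TopHat2, HTSeq and hg19 were used, with versions and roles not given. The deposited table holds 1 normalised signal value per gene and library. The values show that the authors gave every library the same distribution and a floor of 20. The strand setting of the counting is unknown here, and RefSeq places other genes across TRPA1, CHRM2, ANO3, GPR133 and OLR1.

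Values were tested as log2 with no pseudocount (the floor is above 0) by limma 3.58.1 in R 4.3.3, with a variance trend, on 12481 genes whose highest value was at least 40. One model over 5 groups and 9 libraries left 4 residual degrees of freedom. Adjusted p-values are Benjamini-Hochberg over all 12481 genes, and intervals are 95%. An exact permutation test of 4 libraries against 2 cannot go below p = 0.0667. The procedure was tested on simulated data. The level of 1 targeted gene is not reported here. The members and the family lists were chosen with earlier results of these data known. Named relatives are, per list and comparison, up to 2 called genes in each direction with the largest change. F2R, F2RL2, F3, TRPM7, SYPL1 and TSPAN13 lie outside that rule and were chosen after their values were seen. Replicate numbers, checked by the correlation of deviations (−0.071 and −0.099), did not pair the libraries. Alternatives were pseudocounts, filters, median-of-ratios scaling, no variance trend, a replicate block and leaving out each replicate.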

Additional observations from a re-analysis of the deposited data

How the results depend on the processing

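The log2 differences of the 9 genes kept their direction and side of the threshold in 344 alternative values, 2 passed the threshold and 5 turned direction; ANO3 and GPR133, at the floor, could not change in the knockdowns. Leaving out 1 library gave −0.80 to 0.29 for TRPA1 and −0.02 to 0.53 for TMEM158 with LncRNA-OIS1 knockdown, the 0.29 and −0.02 without hairpin 32-9, and −0.29 to 0.02 for OLR1 with BRD7 knockdown, the 0.02 without senescent replicate 1. The replicate block gave 0.28 for TRPA1, 1.25 for F2RL1 and −0.06 for TMEM158. Without hairpin 32-9 p53 knockdown called 2 of the 9 (TM4SF1, 0.76, adjusted p = 0.0493; OLR1, −1.36, adjusted p = 0.0394), and with any of the other 5 senescent and LncRNA-OIS1 libraries left out it called 0.

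Counts of genes called moved more. For senescent against control, median-of-ratios scaling called 856 higher and 973 lower, against 992 and 886 as deposited. Leaving out 1 library gave 124 to 3704 for senescent against control, 0 to 164 for LncRNA-OIS1 knockdown, 0 to 2146 for p53 knockdown and 0 to 8 for BRD7 knockdown. Hairpin 32-9 left out gave the 3704, 164 and 2146. The replicate block gave 106 (17 higher, 89 lower), 0, 0 and 0 for these comparisons in that order. No low-value filter gave 57 for LncRNA-OIS1 and 30 for BRD7 knockdown. No variance trend gave 1 for LncRNA-OIS1, 2 for p53 and 0 for BRD7 knockdown, and pseudocounts of 10 or 50 gave 0 for BRD7 knockdown.

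Family counts were recomputed after seeing the data. Leaving out 1 library gave 1 to 22 higher and 3 to 19 lower for senescent against control, 0 to 4 lower for LncRNA-OIS1 knockdown, and 0 to 10 higher and 0 to 22 lower for p53 knockdown. The block gave 0 higher and 3 lower for senescent against control, and 0 both ways for p53 knockdown. The causes were not tested. The floor hides any change below 20, and depth is not known.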

Other observations

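Other surface proteins of the family lists shared the low level with hairpin 32-9 that TRPA1 and F2RL1 had; they were picked after their values were seen and no list test was run. TRPV2, a calcium-permeable TRP channel, read 1953.0, 1673.0, 1857.6 and 280.9 with hairpins 32-2, 32-3, 32-8 and 32-9, 1294.4 with p53 knockdown and 1891.4 with BRD7 knockdown. It read 2204.3 and 2281.0 in senescent libraries and 454.9 in the control, so hairpin 32-9 lay below the control. TSPAN13, a tetraspanin, read 855.6, 538.4, 1072.9 and 108.4 with the same hairpins, 167.0 with p53 knockdown and 488.3 with BRD7 knockdown, against 699.6 and 773.9 in senescent libraries and 56.6 in the control. TSPAN15, a tetraspanin partner of ADAM10, read 193.1, 154.1, 99.1 and 25.7 with the hairpins, 132.0 with p53 knockdown and 220.8 with BRD7 knockdown. It read 124.9 and 110.9 in senescent libraries and 26.1 in the control.

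The scavenger receptors SCARA3 and COLEC12 ran the other way with that hairpin. SCARA3 read 153.7, 177.6, 43.9 and 726.2 with hairpins 32-2, 32-3, 32-8 and 32-9, 534.6 with p53 knockdown and 105.8 with BRD7 knockdown, against 58.9 and 64.2 in senescent libraries and 554.8 in the control. COLEC12 read 66.6, 80.2, 1020.2 and 2292.9 with the hairpins, 74.3 with p53 knockdown and 100.7 with BRD7 knockdown. It read 128.1 and 131.2 in senescent libraries and 1768.9 in the control, so hairpins 32-8 and 32-9 stood apart from the other RAS-activated libraries. The anoctamin ANO4 had 1036.7, 927.0, 1438.9 and 445.2 with the hairpins, 497.6 with p53 knockdown and 1324.3 with BRD7 knockdown. All were below the 2155.7 and 2114.4 of senescent libraries, as all 6 knockdown libraries were for 18.6% of genes tested. Its control value was 838.1. None of these 6 genes was called in limma for LncRNA-OIS1 or p53 knockdown.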
